A study of Mus musculus with 8 samples.

Results

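Small leucine-rich proteoglycans and dermatopontin were followed as 10 genes in mouse inguinal white adipose tissue (iWAT), a fat depot under the skin of the groin. The members, chosen by gene symbol, were Dcn, Lum, Bgn, Fmod, Prelp, Ogn, Aspn, Podn, Omd and Dpt, and all 10 were present among the 54532 genes of the deposited table. The study compared 4 libraries of male mice labelled KLF10AKO, a knockout of the zinc-finger transcription factor KLF10 in adipocytes, with 4 libraries of male wild-type (WT) mice, all fed a high-fat diet (HFD). Values were the FPKM of the authors, which count fragments per kilobase of a gene and divide by a library size that they set. The sources used here give neither the Cre driver, the age, the length of the diet nor the animal behind each library. P-values therefore measure the spread between libraries, which may be partly technical.

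Small leucine-rich proteoglycans are secreted proteins built from a curved stack of leucine-rich repeats, and many carry chondroitin, dermatan or keratan sulfate chains. They bind collagen fibrils and set fibril diameter and spacing, and several also bind TGF-beta or cell surface receptors. Dermatopontin has no leucine-rich repeats. It is a small tyrosine-rich matrix protein that binds decorin and promotes collagen fibril assembly. In fat these genes are known chiefly from fibroblasts and adipocyte progenitors.

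Each KLF10AKO library held 15900731 to 17396282 reads assigned to genes, against 15537863 to 17499132 in each WT library. Klf10 stood at 9.60 ± 0.157 FPKM in KLF10AKO and 18.2 ± 2.09 in WT (SD, n = 4 each) on the authors' scale. That value covers the whole gene and does not single out a deleted exon, and its log2 change of -0.88 (limma adjusted p = 8.96e-06) became 0.79 when libraries were scaled to adipocyte markers and 0.078 (adjusted p = 0.622) when scaled to fibroblast markers. The summed FPKM of 14 adipocyte markers was 5405 to 6941 in KLF10AKO and 16391 to 18613 in WT, and that of 12 adipose fibroblast markers was 98.1 to 127.6 in KLF10AKO and 259.1 to 301.4 in WT. Markers of B cells, T cells and lymph node stroma stood far apart between the groups. The sum of 8 B cell markers was 1398 to 2049 in KLF10AKO and 4.19 to 4.603 in WT, that of 7 T cell markers 224.5 to 335.2 and 1.71 to 3.07, and that of the lymph node stroma genes Cxcl13, Madcam1 and Glycam1 92.6 to 137.8 and 0.941 to 1.54. The sum of 10 skeletal muscle markers was 6088, 4613, 10745 and 63.0 in KLF10AKO replicates 1 to 4 and 174.0 to 230.2 in WT. Between KLF10AKO replicate 4 and WT the single muscle genes went both ways. Acta1 stood at 20.9 FPKM in KLF10AKO replicate 4 and 160.5 to 212.6 in WT, and Pvalb at 0.435 and 2.64 to 4.04. Eno3 stood at 28.9 and 8.51 to 11.4, and Mylpf at 7.68 and 0.816 to 1.28. Trophoblast and decidua genes summed to 0 to 0.113 in KLF10AKO, where 7 of 9 were at 0 in every library, and to 20.4 to 51.0 in WT. Of those 7, Gcm1 was at 0 in every WT library too. Tendon markers, of interest because tendon is rich in fibromodulin, summed to 2.06 to 2.52 in KLF10AKO and 2.09 to 2.84 in WT over 6 genes. Single tendon genes went both ways, with Thbs4 at 0.553 to 1.06 in KLF10AKO and 0 to 0.162 in WT. Comp stood at 0.444 to 0.746 in KLF10AKO and 1.21 to 1.93 in WT. Cartilage and bone markers summed to 0.837 to 1.34 in KLF10AKO and 0.496 to 0.903 in WT over 8 genes. Sums for the remaining lists were 164.0 to 202.9 in KLF10AKO and 546.5 to 749.4 in WT for 8 smooth muscle and pericyte genes, and 224.7 to 276.6 against 309.1 to 352.6 for 8 macrophage genes. They were 146.1 to 150.7 against 251.0 to 264.4 for 6 endothelial genes, 11.5 to 14.2 against 16.3 to 22.9 for 5 Schwann cell genes, and 1.33 to 2.36 against 0.533 to 1.34 for 6 epithelial genes. The epithelial genes went both ways. Epcam and Cdh1 averaged 1.44 and 0.326 in KLF10AKO against 0.047 and 0.054 in WT. Krt8 and Krt18 averaged 0.020 and 0.131 in KLF10AKO against 0.326 and 0.557 in WT. The part of these tissues in the results on the proteoglycans was not tested.

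Of the 10 genes, 8 fell in KLF10AKO iWAT and none rose on the authors' scale. Scaling to adipocyte markers left 1 lower, Dpt, and 3 higher, Dcn, Bgn and Fmod. Of all 16012 genes tested, 95 were lower and 15056 higher under that scaling. Scaling to fibroblast markers left 7 lower and 1 higher, Fmod, with 1019 of all genes lower and 12071 higher. Dermatopontin fell the most, to 22.4% of its WT mean, and decorin the least of the 8, to 52.1%. Fibromodulin did not pass the test and osteomodulin was too low to be tested. The test was limma's moderated test on log2(FPKM + 0.5) of all 16012 genes with a mean of at least 0.5 FPKM, at a Benjamini-Hochberg adjusted p of 0.05, and 9 of the 10 members met that minimum. Of all genes tested, 74.3% were called, 34.9% lower and 39.4% higher, with a median log2 change of 0.047, against a median of -1.71 for the 9 members tested. All 4 KLF10AKO values lay below all 4 WT values for the same 8 members, as they did for 33.0% of all genes tested, and no member had all 4 above, as 36.2% of all genes did. In bulk tissue, fewer cells of a type and less RNA per cell cannot be told apart.

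**Figure D1:**
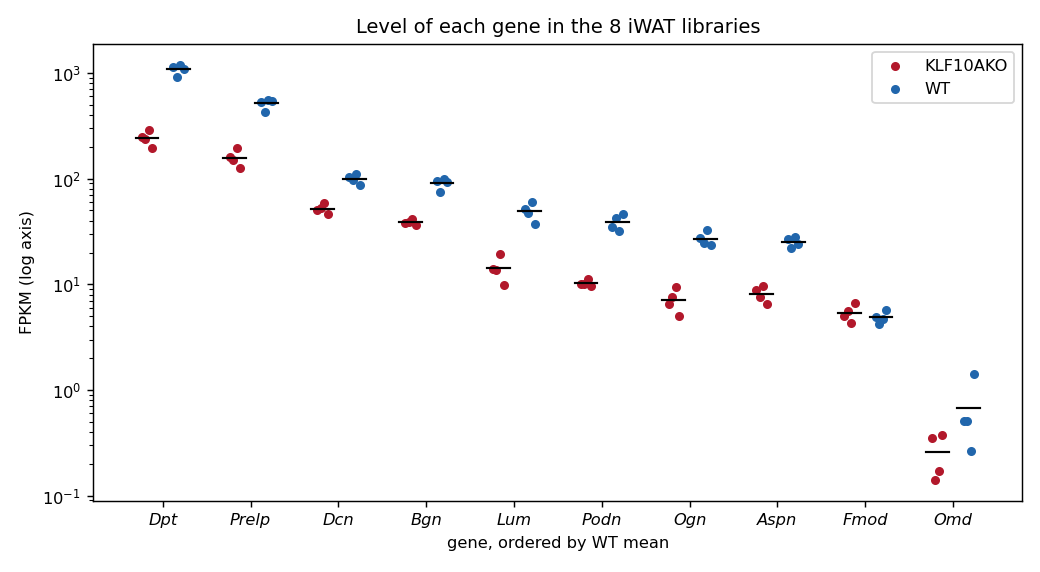
FPKM of each gene (log axis) in the 4 KLF10AKO and 4 WT libraries, each point a library and each bar a group mean. Dpt averages 242.4 FPKM in KLF10AKO and 1082 in WT, while the points of Fmod and of Omd overlap between the groups.

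In FPKM, which is per length, the order by mean level in KLF10AKO was Dpt, Prelp, Dcn, Bgn, Lum, Podn, Aspn, Ogn, Fmod and Omd. In WT it was the same but for Ogn, which stood above Aspn. Neighbours in that order whose ranges overlapped in KLF10AKO were Dpt and Prelp, Lum and Podn, Aspn and Ogn, and Ogn and Fmod. In WT they were Dcn and Bgn, Lum and Podn, Podn and Ogn, and Ogn and Aspn. Fmod was 9th in both groups, clear of Aspn in all 4 WT libraries, but in KLF10AKO replicate 4 it stood above both Ogn and Aspn. Summed over the 10 genes, the level was 536.6 ± 81.4 FPKM in KLF10AKO and 1934 ± 193.0 in WT (SD, n = 4 each), which is 0.181% ± 0.0219 and 0.494% ± 0.0402 of the recovered reads.

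The class I proteoglycans are decorin, biglycan and asporin. Decorin (Dcn, ENSMUSG00000019929, mm10 chromosome 10, 97479609 to 97518143, plus strand) binds collagen, carries a single sulfated chain and holds TGF-beta in the matrix. Its FPKM was 50.3, 52.2, 59.4 and 46.1 in KLF10AKO replicates 1 to 4, against 103.7, 97.7, 111.2 and 86.7 in WT replicates 1 to 4. The highest KLF10AKO library, replicate 3, was below the lowest WT library, replicate 4. On the log2 scale of the authors' values Dcn fell by 0.93 (limma adjusted p = 2.92e-05, standard error 0.0993, 95% interval -1.16 to -0.71), a sign that turned under scaling to adipocyte or fibroblast markers. An exact permutation test of its 8 values, two-sided, gave p = 0.0286, the smallest that 4 against 4 can give, and the other 7 members without overlap had the same value.

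Biglycan (Bgn, ENSMUSG00000031375, chromosome X, 73483602 to 73495933, plus strand), which can also signal through Toll-like receptors once released from the matrix, varied little between KLF10AKO libraries. Its FPKM was 37.9, 38.6, 41.4 and 36.3 in KLF10AKO replicates 1 to 4, against 95.6, 74.2, 98.6 and 93.5 in WT. Every KLF10AKO library was low and WT replicate 2 was the lowest of its group, with no overlap. Bgn fell by 1.21 (limma adjusted p = 4.09e-06, standard error 0.0949, 95% interval -1.43 to -0.997), but not when scaled to adipocyte markers or to fibroblast markers without Dpp4. Asporin (Aspn, ENSMUSG00000021388, chromosome 13, 49544443 to 49567565, plus strand), which has a run of aspartates and no sulfated chain, stood at 8.81, 7.63, 9.58 and 6.52 FPKM in KLF10AKO and at 26.6, 21.9, 28.1 and 24.2 in WT. The groups did not overlap, and replicate 3 was the highest library in both. Aspn fell by 1.58 (limma adjusted p = 3.87e-06, standard error 0.123, 95% interval -1.86 to -1.30), except when scaled to adipocyte markers.

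The class II members, which can carry keratan sulfate, included the gene that behaved least like the rest. Lumican (Lum, ENSMUSG00000036446, chromosome 10, 97565128 to 97572703, plus strand), a regulator of fibril spacing best known from the cornea, stood at 13.8, 13.6, 19.3 and 9.88 FPKM in KLF10AKO, against 51.1, 47.0, 60.3 and 37.3 in WT. It was the most variable of the 8 between KLF10AKO libraries, where the highest, replicate 3, was 1.95 times the lowest, replicate 4, and still below every WT library. Lum fell by 1.77 (limma adjusted p = 4.63e-05, standard error 0.202, 95% interval -2.23 to -1.31), and was at -0.10 (adjusted p = 0.460) when scaled to adipocyte markers. Prolargin (Prelp, ENSMUSG00000041577, chromosome 1, 133910304 to 133921414, minus strand), whose basic end binds heparan sulfate and links basement membranes to collagen, was the most abundant proteoglycan of the set. Its FPKM was 160.0, 151.1, 194.7 and 127.3 in KLF10AKO and 537.0, 428.0, 552.4 and 543.6 in WT. WT replicate 2 stood below the other WT libraries but far above all of KLF10AKO. Prelp fell by 1.71 (limma adjusted p = 5.35e-06, standard error 0.139, 95% interval -2.03 to -1.39), and was at -0.041 (adjusted p = 0.724) when scaled to adipocyte markers. Its exons overlap 350 bases of the antisense gene Gm15851, which stood at 0.398 to 1.33 FPKM in KLF10AKO and 1.998 to 4.35 in WT, and the sources used here do not say whether counting used strand.

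Fibromodulin (Fmod, ENSMUSG00000041559, chromosome 1, 134037254 to 134048277, plus strand) binds type I collagen and is abundant in tendon and cartilage. Its FPKM was 4.98, 5.58, 4.34 and 6.65 in KLF10AKO replicates 1 to 4, against 4.90, 4.202, 4.66 and 5.75 in WT. The groups overlapped, and replicate 4 was the highest library in each. The log2 change was 0.12 (limma adjusted p = 0.415, exact permutation p = 0.400, two-sided, standard error 0.131, 95% interval -0.18 to 0.42), an interval that does not include a fall of the size seen in any of the 8. Between 231 and 388 reads lay behind each Fmod value. With voom on recovered reads, chosen after the data were seen, the Fmod change was 0.36, where the median of all genes was 0.27. That change passed at a limma adjusted p of 0.0498. With quantile normalization the Fmod change was -0.10, where the median of all genes was -0.16.

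Osteomodulin (Omd, ENSMUSG00000048368, chromosome 13, 49582462 to 49592822, plus strand), a keratan sulfate proteoglycan of bone, was close to the limit of detection. It stood at 0.352, 0.141, 0.172 and 0.378 FPKM in KLF10AKO and at 0.506, 0.508, 0.267 and 1.42 in WT, from 6 to 47 reads per library. The groups overlapped, the highest value, in WT replicate 4, was 5.34 times the lowest of its group, and a difference was not detectable at this depth (exact two-sided permutation p = 0.0857). Without the minimum of 0.5 FPKM its log2 change was -0.55 (limma adjusted p = 0.154).

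Osteoglycin, also called mimecan, is a class III member, and podocan belongs to class V. Osteoglycin (Ogn, ENSMUSG00000021390, chromosome 13, 49608046 to 49624501, plus strand) takes part in collagen fibril assembly and stood at 6.47, 7.52, 9.50 and 4.97 FPKM in KLF10AKO, against 27.3, 24.6, 32.9 and 23.6 in WT. The groups did not overlap, with replicate 3 the highest and replicate 4 the lowest in each. Ogn fell by 1.88 (limma adjusted p = 1.48e-05, standard error 0.180, 95% interval -2.29 to -1.47), and was at -0.21 (adjusted p = 0.124) when scaled to adipocyte markers. Podocan (Podn, ENSMUSG00000028600, chromosome 4, 108014791 to 108096445, minus strand), known to restrain smooth muscle cell growth, stood at 10.2, 10.2, 11.3 and 9.71 FPKM in KLF10AKO and at 35.2, 42.6, 32.1 and 46.5 in WT. The KLF10AKO libraries were nearly level, whereas WT replicates 2 and 4 stood above WT replicates 1 and 3. Podn fell by 1.86 (limma adjusted p = 1.04e-06, standard error 0.115, 95% interval -2.12 to -1.59), and was at -0.19 (adjusted p = 0.236) when scaled to adipocyte markers.

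Dermatopontin (Dpt, ENSMUSG00000026574, chromosome 1, 164796644 to 164824266, plus strand), which serves as a marker of tissue fibroblasts, had the highest level of the 10 genes in every library. Its FPKM was 246.6, 238.7, 290.4 and 193.7 in KLF10AKO replicates 1 to 4, against 1128, 924.2, 1197 and 1081 in WT. The lowest WT library was 3.18 times the highest KLF10AKO library. Dpt fell by 2.16 (limma adjusted p = 1.13e-06, standard error 0.137, 95% interval -2.48 to -1.85), and 46 of the 16012 genes tested, Dpt included, were called lower by at least that much.

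**Figure D2:**
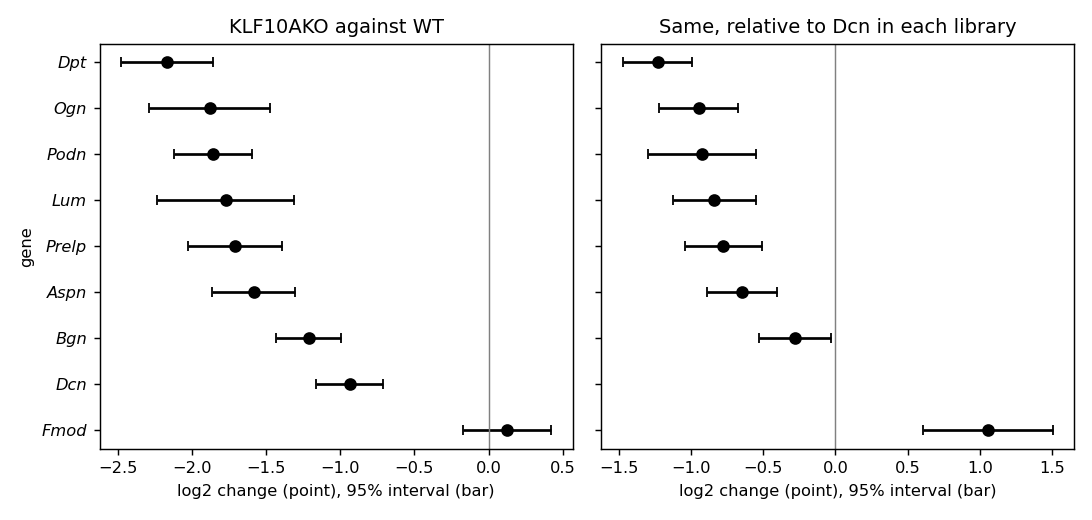
Log2 change of the 9 genes tested, KLF10AKO against WT, on log2(FPKM + 0.5) (left) and after each library's Dcn value was subtracted (right), with points for estimates and bars for 95% intervals. On the left, the authors' scale, 8 intervals lie below 0 and that of Fmod spans it. On the right Fmod alone of these genes lies above 0, at 1.06, where the median of all genes was 0.98.

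The fall was unequal within the family. A ratio of 2 genes within a library does not depend on how libraries are scaled to each other, so each gene was set against Dcn, the type member, in the same limma model. Of 8 members compared, 7 were lower relative to Dcn and 1 was higher. As Dcn fell the least of the 8, the direction of those 7 follows from that choice and only the sizes add to it, and nothing is read from their count against the 6.43% of all genes called lower, with 74.4% higher and a median of 0.98. The order was Dpt at -1.23 (limma adjusted p = 1.71e-06), Ogn at -0.95 (3.15e-05), Podn at -0.92 (4.09e-04), Lum at -0.84 (1.16e-04), Prelp at -0.77 (1.16e-04) and Aspn at -0.65 (2.15e-04). Dpt was 4.64 ± 0.332 times Dcn in KLF10AKO and 10.9 ± 1.23 times Dcn in WT (SD, n = 4 each). Lum was 0.268 ± 0.0457 times Dcn in KLF10AKO and 0.486 ± 0.0460 times Dcn in WT.

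Biglycan kept closest to decorin. Its ratio to Dcn was 0.744 ± 0.0365 in KLF10AKO and 0.912 ± 0.132 in WT (SD, n = 4 each), and WT replicate 2, at 0.759, lay within the KLF10AKO range. The difference of -0.28 passed (95% interval -0.53 to -0.029, limma adjusted p = 0.0402), but only the fits without KLF10AKO replicate 4 and without WT replicate 2 passed among the 8 that left out a library, the other 6 having limma adjusted p of 0.0623 to 0.0933. Fmod was higher relative to Dcn by 1.06 (limma adjusted p = 5.59e-04, standard error 0.203, 95% interval 0.61 to 1.51). Its ratio to Dcn was 0.0989, 0.107, 0.0730 and 0.144 in KLF10AKO replicates 1 to 4, against 0.0473, 0.0430, 0.0419 and 0.0663 in WT. Every KLF10AKO ratio lay above every WT ratio, the nearest pair being KLF10AKO replicate 3 and WT replicate 4. Of all genes compared with Dcn, 74.4% were called higher, with a median of 0.98, so the rise of Fmod is close to that of the median gene. The share of all genes whose ratios to Dcn did not overlap was not counted.

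The make-up of the summed level shifted accordingly. Dpt made up 45.1% ± 0.834 of it in KLF10AKO and 55.9% ± 0.470 in WT (SD, n = 4 each). Dcn made up 9.75% ± 0.556 in KLF10AKO and 5.19% ± 0.578 in WT, and Bgn 7.27% ± 0.728 and 4.67% ± 0.156. Prelp held a similar share, 29.4% ± 0.777 in KLF10AKO and 26.6% ± 0.993 in WT, and its ranges, 28.8% to 30.4% and 25.7% to 27.97%, did not overlap. Fmod made up 1.04% ± 0.348 in KLF10AKO and 0.253% ± 0.0317 in WT.

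Across the KLF10AKO libraries the 8 genes that fell were all highest in replicate 3 and all lowest in replicate 4. Fmod had the opposite order, lowest in replicate 3 and highest in replicate 4. In the same replicates 1 to 4 the adipocyte marker sums were 6224, 6158, 6941 and 5405 FPKM and the adipose fibroblast sums 114.4, 114.5, 127.6 and 98.1, also highest in replicate 3 and lowest in replicate 4. The B cell sums were 1682, 1795, 1398 and 2049, in the same order of libraries as Fmod. The muscle sums, given above, were likewise highest in replicate 3 and lowest in replicate 4, and their part in these values was not tested. Lum ran from 20.2% of its WT mean in KLF10AKO replicate 4 to 39.5% in replicate 3, and Bgn only from 40.1% to 45.8%. Across the WT libraries 7 of the 10 genes were highest in replicate 3, among them Dcn, Lum and Dpt, while Fmod, Podn and Omd were highest in replicate 4. With KLF10AKO replicate 4 as the sole KLF10AKO library, the median log2 change of the 9 members tested was -1.94, against 0.047 for all genes tested. Without that library 8 members were called lower, as were 5432 of all 16012 genes tested.

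**Figure D3:**
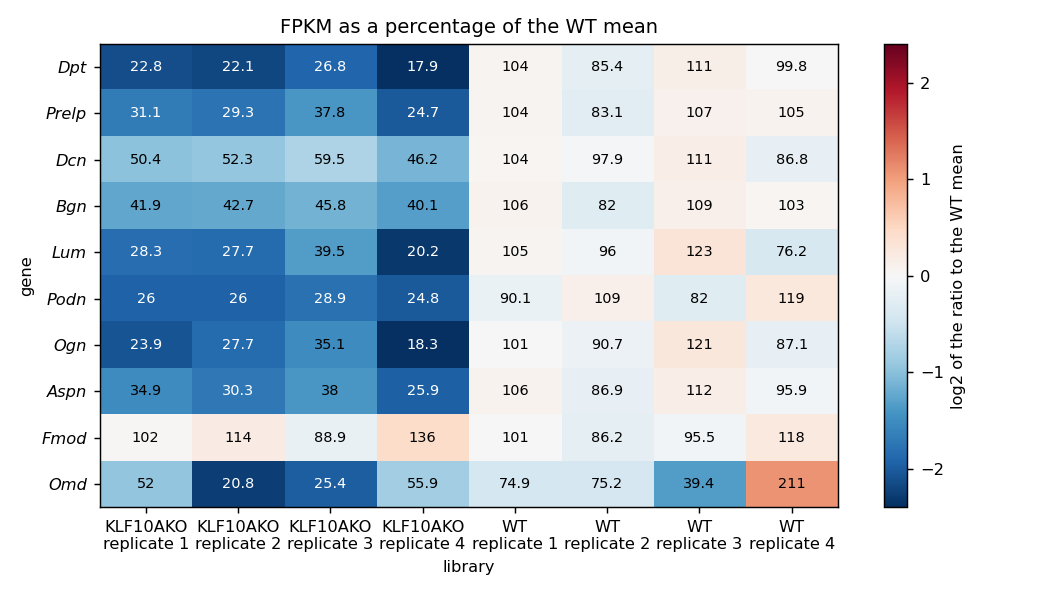
FPKM of each gene in each library as a percentage of its WT mean, KLF10AKO libraries left and WT libraries right, coloured by the log2 ratio. Replicate 3 of KLF10AKO is the palest and replicate 4 the darkest for the 8 genes that fell, and Fmod runs from 88.9% to 136% with no such fall.

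Of the 10 genes 7 sit in 3 chromosomal clusters of the family, and neighbours did not all move alike. In GENCODE M21 the protein-coding neighbours Dcn and Lum lie 46985 bases apart, and their log2 changes were -0.93 and -1.77. Aspn, Omd and Ogn lie in a row on chromosome 13, next to Ecm2, with gaps of 14897 and 15224 bases. Prelp and Fmod, with Optc on the far side of Prelp, lie 115840 bases apart with no protein-coding gene between them, and their changes were -1.71 and 0.12. Fmod amounted to 3.56% ± 1.26 of Prelp in KLF10AKO and 0.949% ± 0.0919 in WT (SD, n = 4 each).

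The 250 bases before the start of Fmod, of its neighbour Prelp and of Dpt, the gene that fell most, are shown 5′ to 3′ on the gene's own strand, from RefSeq on GRCm38.p6 (mm10). They span chr1:134037004-134037253 on the plus strand, chr1:133921402-133921651 on the minus strand and chr1:164796413-164796662 on the plus strand. Capitals mark CACCC or its reverse complement GGGTG, the core of the box that Krüppel-like factors are known to bind. GGGCGG, a GC box, was searched too and had no match in these 3.
Fmod: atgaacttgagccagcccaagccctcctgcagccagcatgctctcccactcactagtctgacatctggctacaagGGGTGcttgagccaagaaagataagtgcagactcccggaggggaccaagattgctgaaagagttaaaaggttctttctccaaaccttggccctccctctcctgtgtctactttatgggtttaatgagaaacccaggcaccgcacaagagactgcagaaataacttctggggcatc
Prelp: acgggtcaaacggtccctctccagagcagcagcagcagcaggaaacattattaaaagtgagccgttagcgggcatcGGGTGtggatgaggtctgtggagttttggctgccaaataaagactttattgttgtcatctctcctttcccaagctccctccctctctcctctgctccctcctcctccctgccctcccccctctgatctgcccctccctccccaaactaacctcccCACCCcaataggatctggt
Dpt: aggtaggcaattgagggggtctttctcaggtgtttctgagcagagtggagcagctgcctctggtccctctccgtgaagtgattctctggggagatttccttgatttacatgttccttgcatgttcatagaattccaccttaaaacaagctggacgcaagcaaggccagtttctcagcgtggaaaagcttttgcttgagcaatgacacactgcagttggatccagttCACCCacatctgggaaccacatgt
Fmod had 1 match, in the upstream part of its window, Prelp had 2, and Dpt had 1, close to its start. RefSeq entries were found for 8 of the 10 genes, not for Dcn and Lum, with 9 windows in all because Podn has 2 starts. CACCC on either strand stood in the windows of 7 of the 8, all but Omd, and in 52.0% of 32851 such windows genome-wide. GGGCGG on either strand stood in 2, Bgn and Podn, against 32.7% of all windows. Base composition was wide, with GC at 30.0% in Aspn, 51.2% in Fmod and 78.0% in a window of Podn.

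Genes of the same family and partners of its proteins were counted by list, on the authors' scale, where 68 fell and 16 rose in all. Of all genes tested 34.9% were called lower and 39.4% higher, which is the background for each list on that scale. The lists were not tested against it. Scaled to adipocyte markers 7 list genes were lower and 70 higher, beside 95 lower and 15056 higher of all 16012 genes tested. Scaled to fibroblast markers 26 list genes were lower and 34 higher, beside 1019 lower and 12071 higher of all genes. Most other members of the family were low. Of 10 listed, 6 were tested, 4 fell and 1 rose. Podnl1, the closest relative of podocan, rose to 2.63, 2.66, 2.16 and 3.48 FPKM in KLF10AKO, against 0.245, 0.322, 0.225 and 0.230 in WT, a log2 change of 2.08 (limma adjusted p = 1.29e-06). On this scale every KLF10AKO library was high for Podnl1 and low for Podn. Ecm2, which neighbours Aspn, fell by 0.93 (adjusted p = 4.36e-05) and Optc, which neighbours Prelp, by 1.12 (adjusted p = 1.49e-04). The corneal gene Kera was at 0 in all 8 libraries.

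On the same scale, the listed fibril collagens and genes of fibril assembly fell in every case tested. Of 17 collagens and fibril partners 16 were tested and 16 fell, with a median log2 change of -1.78. Col5a3, a chain of the fibril-nucleating type V collagen, stood at 26.8, 23.0, 29.2 and 20.9 FPKM in KLF10AKO and at 111.6, 115.2, 109.4 and 113.6 in WT, and fell by 2.16 (limma adjusted p = 1.84e-07). Tnxb, tenascin-X, fell by 1.81 (adjusted p = 7.15e-07). Of 13 listed processing proteases and protease enhancers 10 were tested, and all 10 fell, at a median of -1.24. Among them Bmp1, which trims procollagen and several proteoglycan precursors, fell by 1.29 (adjusted p = 1.16e-06). The gelatinase gene Mmp2 fell by 1.80 (adjusted p = 1.06e-06).

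The enzymes that build the sulfated chains held calls in both directions. Of 20 tested genes of chondroitin and dermatan sulfate synthesis 14 fell and 6 rose, with a median of -0.68. Chst12, a 4-O-sulfotransferase, fell by 1.21 (adjusted p = 2.70e-07) and the polymerizing factor Chpf by 0.95 (adjusted p = 1.32e-06). Chst3, a 6-O-sulfotransferase, stood at 21.9, 23.4, 19.7 and 26.9 FPKM in KLF10AKO and at 0.124, 0.176, 0.144 and 0.157 in WT, a log2 change of 5.17 (limma adjusted p = 2.05e-09). Xylt1, which starts the chain, rose by 1.30 (adjusted p = 5.79e-06). Of 10 tested genes of keratan sulfate synthesis and sulfate supply 5 fell and 3 rose, at a median of -0.23. Papss2 and Papss1, which make the sulfate donor, fell by 0.75 (adjusted p = 5.33e-06) and 0.78 (adjusted p = 6.47e-06), and the sulfotransferase gene Chst2 rose by 1.12 (adjusted p = 1.34e-05). Chst4, a sulfotransferase of the high endothelial venules of lymph nodes, rose to 1.36, 1.43, 1.50 and 2.71 FPKM in KLF10AKO and had 0 reads in all 4 WT libraries (limma adjusted p = 8.78e-06). In these libraries the B cell marker sums given above were 1398 to 2049 FPKM in KLF10AKO and 4.19 to 4.603 in WT, and their part in the rises was not tested.

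Growth factors and receptors known to bind these proteins also held calls in both directions on the authors' scale, with 9 lower and 4 higher of 16 tested and a median of -0.60. Tgfb1 rose by 1.12 (adjusted p = 1.99e-06) and Tlr2, a receptor of biglycan, by 0.86 (adjusted p = 1.27e-04). Lrp1, which takes up decorin, fell by 1.63 (adjusted p = 9.01e-07) and the VEGF receptor gene Kdr by 0.76 (adjusted p = 1.97e-06). Of 14 other proteoglycans tested 10 fell and 2 rose, at a median of -0.89. Cspg4, a proteoglycan of pericytes, fell by 2.05 (adjusted p = 1.79e-07) and Hspg2, perlecan of basement membranes, by 1.71 (adjusted p = 2.98e-07). Srgn, serglycin of blood cell granules, rose by 1.70 (adjusted p = 1.31e-06) and Sdc3, a syndecan, by 0.38 (adjusted p = 6.78e-04). Limma's test of all genes and its adjustment underlie each of these values.

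**Figure D4:**
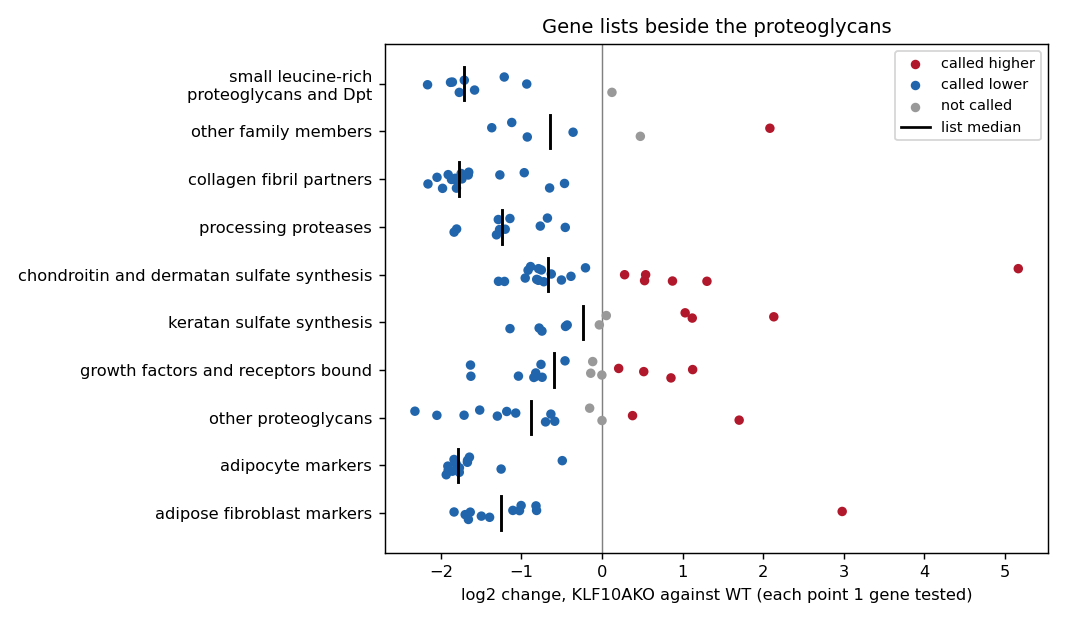
Log2 change of each gene tested, KLF10AKO against WT, by list, coloured by the limma call, with a bar at the list median. The medians of the 9 members tested, Dpt included (-1.71), the collagen fibril partners (-1.78) and the adipocyte markers (-1.79) lie close together, and that of the adipose fibroblast markers is -1.25.

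The median of the 9 members tested lay beside those of the collagen fibril partners and the adipocyte markers, which is a description and no test between lists, and single members ran from -2.16 for Dpt to 0.12 for Fmod. Of 12 adipose fibroblast markers 11 fell, by 0.81 to 1.84 on the authors' scale, and Dpp4, which T cells also express and which was singled out after its value was seen, rose by 2.98. Measured as the root mean square difference of log2 profiles over the 8 libraries, each centred on its WT mean, the protein-coding genes nearest to Dcn were Degs1 (0.0448), Sh3glb1 (0.0484) and Thbs2 (0.0496). Nearest to Dpt were Slc7a10 (0.0750) and Igfals (0.0915), and those nearest to Fmod were Zfp827 (0.0861), Acot8 (0.0864) and Lnx2 (0.0938). None of the 3 had another member of the family among its 3 nearest genes. The nearest member was Bgn for Dcn, at 0.239, Ogn for Dpt, at 0.240, and Dcn for Fmod, at 0.803. Lum and Ogn lay nearer to each other, at 0.124, with Lum ranking 6th for Ogn and Ogn 15th for Lum. For Podn the nearest member, Prelp, ranked 231st, at 0.261.

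The size of each fall, and for some genes its sign, depended on what the libraries were scaled to. Scaling each library to the 12 adipose fibroblast markers moved the median of all genes to 1.01, called 7 members lower and 1 higher, and left Dcn at 0.025 (limma adjusted p = 0.796), Dpt at -1.21 and Fmod at 1.08 (adjusted p = 6.22e-04). Without Dpp4, a choice made after the data were seen, the median of all genes was 1.36, with 6 members lower and 2 higher. Dcn was then at 0.38 (adjusted p = 0.00330), Bgn at 0.10 (adjusted p = 0.422), Dpt at -0.85 (adjusted p = 5.39e-06) and Fmod at 1.44 (adjusted p = 8.56e-05). Scaling to the 14 adipocyte markers moved the median of all genes to 1.71 and called 1 member lower, Dpt at -0.50, and 3 higher, Dcn at 0.73, Bgn at 0.45 and Fmod at 1.79. The other 5 then lay between -0.21 and 0.087 and did not pass. Under TPM the median of all genes was 0.26 and under quantile normalization -0.16, and 8 members fell under each.

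**Figure D5:**
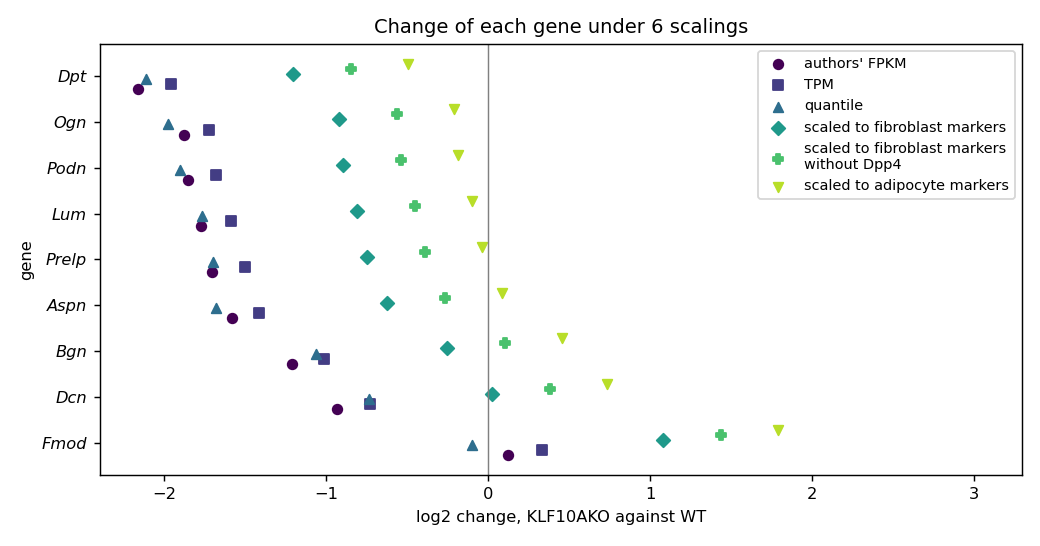
Log2 change of each of the 9 genes tested, KLF10AKO against WT, under 6 scalings of the libraries, 1 symbol each. All symbols of Dpt lie below 0, those of Dcn run from -0.93 to 0.73, and Fmod is rightmost under every scaling.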

How the data were processed

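The deposited values were FPKM of 54532 genes in 8 libraries, made by the authors, with gene lengths beside them. Per the labels, poly(A) RNA was primed with random hexamers. The submitters' processing notes name mm10, edgeR 3.22.5, featureCounts 1.5.0-p3 and HISAT2 2.0.5. The sources used here give no role for them, no annotation release and no strand setting.

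In each library all deposited FPKM values (100%), multiplied by length, were whole multiples of a single step, within 0.01 of a read, which gave the reads quoted. Their sum was 0.901 to 0.939 of the size that this step implies in KLF10AKO and 1.05 to 1.09 of it in WT. Coordinates and exon lengths of all 10 members were the same in GENCODE M21.

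The test was limma's (version 3.58.1, R 4.3.3; lmFit, eBayes with trend, no covariate) on log2(FPKM + 0.5), a scale that understates changes of low genes. P-values are two-sided and adjusted over all genes tested. The procedure was tested on simulated data in which few genes changed, equally many up and down. That setting differs from these libraries and does not test the scaling between them. Intervals cover the spread between libraries only. The members and lists were chosen with earlier results of these data known, and the lists are described by counts and medians, with no test of a list. From each list of family members and partners the text names the called genes of lowest p, up to 2 in each direction, besides the members and Kera and Dpp4, which were named after their values were seen, and the 3 nearest profiles of Dcn, Fmod and Dpt, of which 1 is not reported here. Of the listed lymph node stroma genes, Ccl19 and Ccl21a had several rows each and were left out. Replicate numbers did not pair the libraries. Alternatives were other pseudocounts, minimums and scalings, a replicate block, robust eBayes, voom, and each library left out.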

Additional observations from a re-analysis of the deposited data

Results flagged for a closer look

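Prelp in WT replicate 2, at 428.0 FPKM against 537.0 to 552.4 in the other 3 WT libraries, stood apart from its group by the ratio of the gap to the whole range. It still lay above all 4 KLF10AKO values. It was the only such case among 40 groups of 4 values, and chance alone would flag about 5% of such groups.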

How the results depend on the processing

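The 21 alternatives gave 357 values for the members, of which 335 kept their direction and call, 11 no longer passed (7 of Bgn relative to Dcn and, scaled to adipocyte markers, Lum, Prelp, Ogn and Podn), 4, all of Fmod, newly passed, and 7 reversed. The reversals were Fmod at -0.10 with quantile normalization, Dcn at 0.73, Bgn at 0.45 and Aspn at 0.087 with adipocyte scaling, Dcn at 0.025 with fibroblast scaling, and Dcn at 0.38 and Bgn at 0.10 without Dpp4. Klf10 reversed under the same scalings, to 0.79, 0.078 and 0.44. With adipocyte scaling 15056 genes were higher and 95 lower, 3 members higher and 1 lower, and 70 list genes higher and 7 lower, against 6305 and 5588, 0 and 8, and 16 and 68 as reported. With fibroblast scaling these were 12071 and 1019, 1 higher member, and 34 and 26, and without Dpp4 13721 and 353, 2 higher members, and 58 and 19. A minimum of 2 FPKM left 10 list genes higher, and voom called 1 member higher, Fmod. The share of higher calls was 53.0% as reported, 64.4% with TPM, 41.2% with quantile normalization, 62.8% with voom, and 92.2%, 97.5% and 99.4% with fibroblast markers, without Dpp4 and with adipocyte markers. Leaving out each library kept 8 members lower and 0 higher, and 6 to 7 lower relative to Dcn. In those fits 5307 to 5593 of all genes were lower and 5991 to 6269 higher.

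Same-numbered libraries of the groups did not deviate together (correlations 0.00300 to 0.0310), so the replicate block, with 6220 genes higher, 5506 lower and 8 members lower, is a check only, and every library but those numbered 2 correlated best with its own number. The planned count tests with edgeR and DESeq2 were not run, since the deposited unit is FPKM. Depth limits Omd, with 6 to 47 reads per library.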
